A study of Mus musculus with 6 samples.

Results

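Cytochrome P450 genes encode heme enzymes that insert oxygen into drugs, dietary chemicals, fatty acids, sterols and vitamins. They were taken as the rows of the deposited table whose name begins with Cyp and a digit, except Cyp51 and names ending in -ps. This gave 66 of 29940 genes, in 14 families. Of these, 23 averaged 1 FPKM or more across the 6 samples and were tested together with every other gene at that level, 12350 in all. FPKM is the number of fragments per kilobase of exon, scaled to the fragments of the library, so that levels can be compared between genes. Total RNA was sequenced from colon organoids, small epithelial bodies grown in Matrigel, a basement membrane gel. They started from large-intestinal crypts of the inbred mouse strain C57BL/6J. After 2 days in culture, 3 samples were kept with TNFα for 24 hours (TNF) and 3 were kept without it for the same time (Ctrl). TNFα is a cytokine of inflammation, and the sources used here do not give its dose, the age of the mice or the number of animals. The labels do not state whether replicates are separate cultures or mice, so p-values here reflect only how much these 6 samples vary, and that variation may be technical.

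In the intestine, cytochrome P450 enzymes sit mainly in the endoplasmic reticulum of differentiated absorptive cells and receive electrons from the reductase Por. Families 1 to 3 are known mostly for the oxidation of foreign chemicals and of arachidonic acid, and family 4 for oxidation at the far end of fatty acids and eicosanoids. The smaller families act on sterols, vitamin D, retinoic acid and steroid hormones. Many members of families 2, 3 and 4 lie in tandem arrays of close copies, and transcription of several is known to follow ligand-activated receptors such as CAR, PXR and the aryl hydrocarbon receptor, and liver and gut factors such as HNF4.

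The 250 bases before the start of 5 members, picked for different reasons, are printed. Cyp2w1 had the largest change and Cyp2c55 the highest level. Cyp2c65 and Cyp2c68 are the pair that held an HNF4 motif, and Cyp1a1 is the textbook target of the aryl hydrocarbon receptor. The printed windows are RefSeq sequences in GRCm38.p6 and run 5′ to 3′ towards the gene. Cyp2w1 (chr5:139352366-139352615), Cyp2c55 (chr19:39006769-39007018), Cyp2c65 (chr19:39060756-39061005) and Cyp1a1 (chr9:57697363-57697612) are on the plus strand, and Cyp2c68 (chr19:39741102-39741351) is on the minus strand. Capitals mark matches on either strand to GCGTG (core of the aryl hydrocarbon receptor site), an NF-κB pattern (GGG, any 5 bases, CC), CAAAGTCCA (HNF4) and GTTAAT (part of the HNF1 site).
Cyp2w1: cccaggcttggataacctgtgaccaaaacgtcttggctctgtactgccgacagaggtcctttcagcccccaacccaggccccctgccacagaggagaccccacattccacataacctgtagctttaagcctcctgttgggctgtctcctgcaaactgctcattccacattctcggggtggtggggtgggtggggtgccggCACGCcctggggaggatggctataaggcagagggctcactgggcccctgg
Cyp2c55: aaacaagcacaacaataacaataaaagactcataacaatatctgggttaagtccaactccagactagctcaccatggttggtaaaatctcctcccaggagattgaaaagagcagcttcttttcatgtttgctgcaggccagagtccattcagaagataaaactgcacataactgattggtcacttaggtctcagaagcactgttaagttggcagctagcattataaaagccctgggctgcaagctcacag
Cyp2c65: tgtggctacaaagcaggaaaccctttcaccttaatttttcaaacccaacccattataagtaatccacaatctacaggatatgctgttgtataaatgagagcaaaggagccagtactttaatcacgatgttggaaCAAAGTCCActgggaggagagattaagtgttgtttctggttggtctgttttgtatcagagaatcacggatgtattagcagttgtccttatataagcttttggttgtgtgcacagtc
Cyp2c68: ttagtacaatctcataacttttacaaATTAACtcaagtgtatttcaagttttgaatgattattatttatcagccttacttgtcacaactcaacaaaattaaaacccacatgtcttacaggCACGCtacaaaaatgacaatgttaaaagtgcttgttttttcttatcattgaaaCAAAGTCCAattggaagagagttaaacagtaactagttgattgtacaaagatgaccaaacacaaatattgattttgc
Cyp1a1: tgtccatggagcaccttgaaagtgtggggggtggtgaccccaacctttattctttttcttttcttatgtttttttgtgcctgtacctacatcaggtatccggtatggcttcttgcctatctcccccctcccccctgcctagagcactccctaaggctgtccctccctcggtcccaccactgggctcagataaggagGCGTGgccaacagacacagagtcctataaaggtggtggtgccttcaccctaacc
In these windows a GCGTG match began 50 bases before the start in Cyp2w1, 54 in Cyp1a1 and 130 in Cyp2c68. A GTTAAT match began 224 bases before the start in Cyp2c68, and Cyp2c55 held none of the 4 motifs. The CAAAGTCCA match began 116 bases before the start in Cyp2c65 and 77 bases before it in Cyp2c68. All distances are from the RefSeq start. The bases after that start were found near the beginning of a GENCODE transcript for Cyp2c55 and Cyp1a1. They were not found there for Cyp2w1, Cyp2c65 and Cyp2c68, so these starts differ between annotations. The check needed the first bases to match in full, so a small offset could fail it. The windows end at 139352615 for Cyp2w1 and 39061005 for Cyp2c65, and the GENCODE genes begin at 139352617 and 39061015. On the minus strand, the Cyp2c68 window ends at 39741102 and the GENCODE gene begins at 39741054. The Cyp1a1 window lies inside the GENCODE span of its gene. RefSeq promoters were found for 21 of the 23 tested members, 25 promoters in all. CAAAGTCCA occurred in 2 of these 25, against 0.384% of all 32851 promoters. Both belong to the same Cyp2c array of close copies on chromosome 19, so they may not be separate cases. GCGTG occurred in 9 of the 25 against 28.2% of all promoters, the NF-κB pattern in 9 against 45.8%, and GTTAAT in 4 against 6.43%. These counts describe the letters of the windows and were not tested.

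With TNF, most cytochrome P450 genes expressed by the organoids had a lower level. Of the 23 tested members, 18 fell, 1 rose (Cyp4v3) and 4 did not pass (limma, Benjamini-Hochberg adjusted p under 0.05 over all tested genes). Over all 12350 tested genes 24% were called, 11.1% lower and 12.9% higher. The median log2 change of (FPKM + 1) was -0.67 for the 23 members and -0.00103 for all tested genes. The groups did not overlap in 20 members, against 41.4% of all tested genes. In 19 of them every TNF sample lay below every Ctrl sample, against 20.4% of all tested genes. A fall with a log2 change of -0.5 or less was called in 14 members, against 2.53% of all tested genes. A fall with a log2 change of -1 or less was called in 8 members, against 0.486% of all tested genes. TNF 3 and Ctrl 1 had the lowest summed leukocyte markers of their groups, and leaving out both left 15 members called lower and 0 called higher, with 596 lower and 821 higher among all genes. Without Ctrl 1 alone, 913 genes were called lower in place of 1374, and 17 members.

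**Figure D1:**
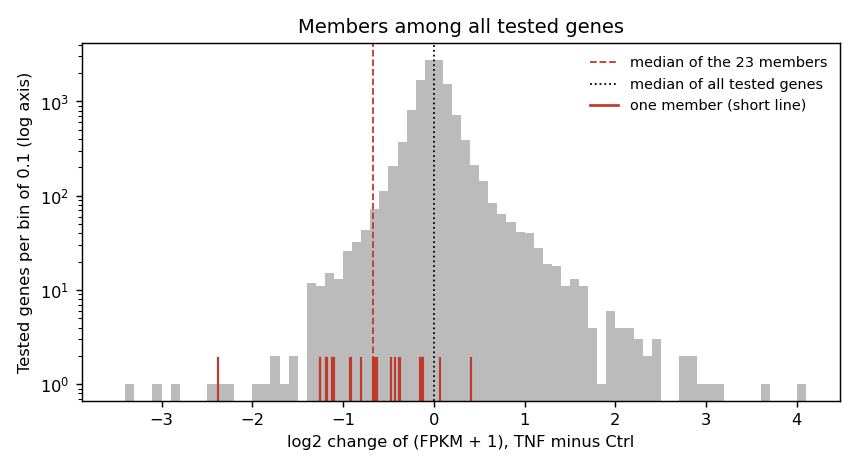
Histogram of the log2 changes of (FPKM + 1), TNF minus Ctrl, of the 12350 tested genes (log count axis), with a short red line for each of the 23 tested members. The members' median (dashed) stands at -0.67 and the median of all tested genes (dotted) at -0.00103.

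Summed over all 66 members, the level was 694, 746 and 708 FPKM in TNF samples, against 1370, 1482 and 1469 FPKM in Ctrl samples. The TNF sums thus came to 0.497 of the Ctrl sums as a ratio of means. As a share of the summed FPKM of the whole table, the members made up 0.217% ± 0.00735 in TNF and 0.433% ± 0.0208 in Ctrl (mean ± SD over the 3 samples of each group, here and for every value with ± that follows). Cyp2c55 alone held 57.2% ± 1.31 of the members' sum in TNF and 61.8% ± 0.768 in Ctrl. Without Cyp2c55 the sums were 302, 308 and 309 FPKM in TNF, against 531, 572 and 548 FPKM in Ctrl, a ratio of 0.557. The order of the members by mean level began with Cyp2c55, Cyp2c65 and Cyp2d26 in both groups. Cyp2j6 stood before Cyp4f14 in TNF and after it in Ctrl, and Cyp2w1 was the lowest of the 23 in TNF and the 17th in Ctrl. Sums by family were lower in TNF for Cyp2 (ratio 0.487), Cyp3 (0.426), Cyp4 (0.549) and Cyp1 (0.601), and the sums were described without a test. In whole cultures, fewer cells of a type and less RNA per cell cannot be told apart.

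**Figure D2:**
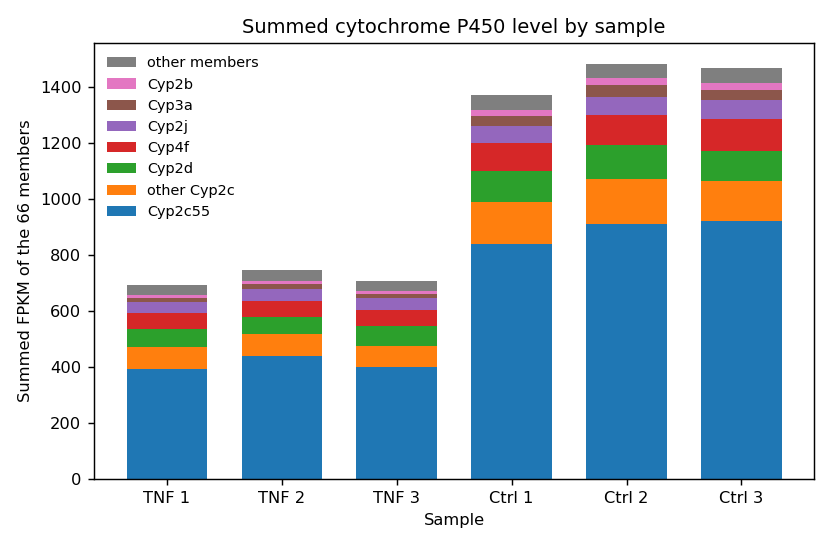
Summed FPKM of the 66 members in each sample, TNF samples left and Ctrl samples right, divided into Cyp2c55, the other Cyp2c genes, 5 further subfamilies and all other members. Each TNF bar stands between 694 and 746 FPKM and each Ctrl bar between 1370 and 1482 FPKM.

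The Cyp2c genes, known in mouse as hydroxylases and epoxygenases of arachidonic acid, were the most abundant subfamily. All 4 tested members fell. Cyp2c55 (ENSMUSG00000025002, chromosome 19, 39007019 to 39042693, plus strand, GRCm38), a mouse colon enzyme that hydroxylates arachidonic acid, was the 55th most abundant gene of the table in TNF and the 31st in Ctrl. Its level was 391.8, 438 and 399 FPKM in TNF samples, against 839, 911 and 920 FPKM in Ctrl samples. Every TNF value was below every Ctrl value, and the log2 change was -1.12 (SE 0.06, limma adjusted p = 2.63e-05). Cyp2c65 (ENSMUSG00000067231, chromosome 19, 39061015 to 39093944), its neighbour in the array, stood at 72.0, 71.1 and 70.4 FPKM in TNF and at 133, 145 and 126 FPKM in Ctrl. The TNF samples lay close together, with an SD of 0.817 FPKM against 9.52 FPKM in Ctrl, and the log2 change was -0.91 (SE 0.05, adjusted p = 3.41e-05).

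Further along the same array, Cyp2c66 had 2.50, 2.78 and 2.33 FPKM in TNF, against 6.4, 8.56 and 7.51 FPKM in Ctrl (log2 change -1.26, adjusted p = 0.000115). Cyp2c68 had 3.39, 4.61 and 2.52 FPKM in TNF, against 8.59, 7.83 and 9.35 FPKM in Ctrl (log2 change -1.11, SE 0.16, adjusted p = 0.00182). The groups did not overlap for either gene, and TNF 2 was the highest TNF sample for both. As ratios of mean FPKM, TNF over Ctrl, the 4 genes ran from 0.339 for Cyp2c66 to 0.528 for Cyp2c65. Differences in fall between members were not tested. Reads can be shared between close copies, and the authors' way of counting them is not known from the sources used here. Of the distinct stretches of 100 bases in the listed transcripts, none of Cyp2c55 occurred in transcripts of another gene, though 3.21% of its exon bases lie in exons of Gm23800. For Cyp2c65 the share was 7.82%, all with Cyp2c66, whose own share was 7.35%. It was 19.8% for Cyp2c68, mostly with Cyp2c40, which was at 0.0541 ± 0.0308 FPKM in TNF and 0.135 ± 0.0796 FPKM in Ctrl. Cyp2c69, below the filter, was at 0.166 ± 0.0765 and 0.312 ± 0.1 FPKM in TNF and Ctrl.

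**Figure D3:**
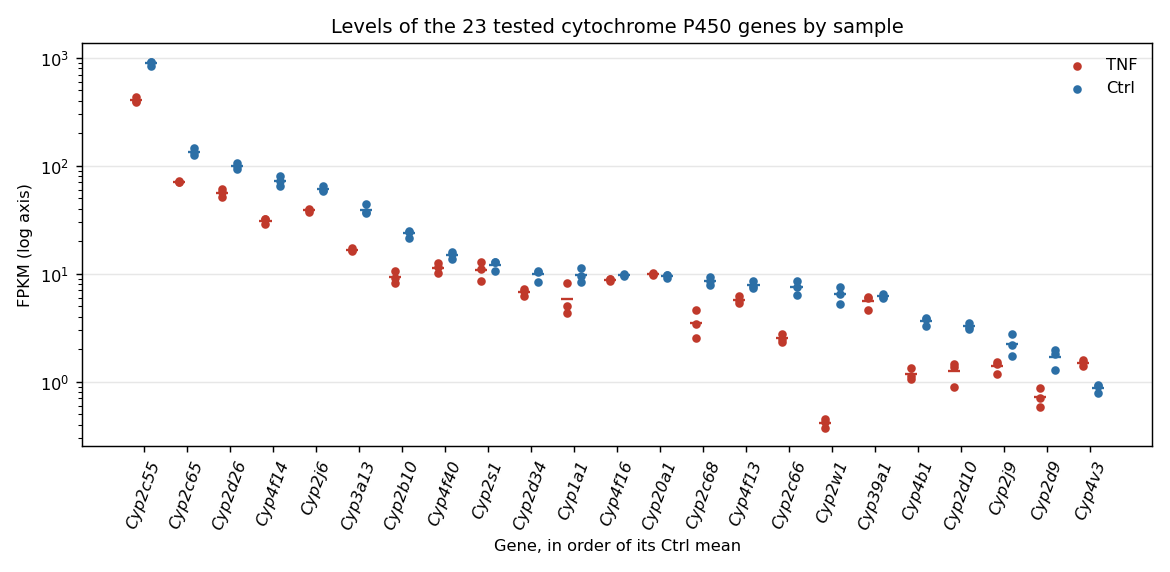
FPKM (log axis) of the 23 tested members in each sample, TNF in red and left of Ctrl in blue, with a bar at each group mean and the genes in order of their Ctrl mean. Red and blue points overlap for Cyp2s1, Cyp20a1 and Cyp39a1, and Cyp4v3 is the one gene with all red points above the blue.

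Cyp2w1 (ENSMUSG00000029541, chromosome 5, 139352617 to 139357033), an enzyme known from human fetal colon and colorectal tumours, had the largest fall among the members. It stood at 0.448, 0.427 and 0.375 FPKM in TNF samples, against 6.45, 5.29 and 7.59 FPKM in Ctrl samples. The level in TNF was 6.47% of the Ctrl mean (log2 change of FPKM + 1 of -2.38, SE 0.11, adjusted p = 1.05e-05). The values correspond to about 18.3 to 19.2 reads per TNF library and 237 to 344 reads per Ctrl library. None of its 100-base stretches occurred in another gene. Because 1 was added before the log, the change of such a low gene is understated: with a pseudocount of 0.1 it was -3.65.

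Among genes of the drug-oxidizing subfamilies, Cyp2b10, the classic target of the receptor CAR, fell (ENSMUSG00000030483, chromosome 7, 25897620 to 25926624). Its levels were 8.28, 10.6 and 9.15 FPKM in TNF, against 21.6, 24.6 and 24.9 FPKM in Ctrl (log2 change -1.26, SE 0.09, adjusted p = 7.09e-05). Cyp3a13, which oxidizes drugs in the intestine, fell as well (ENSMUSG00000029727, chromosome 5, 137892932 to 137921619). It was at 16.1, 17.5 and 16.5 FPKM in TNF, against 37.0, 44.5 and 36.2 FPKM in Ctrl (log2 change -1.18, SE 0.08, adjusted p = 5.15e-05). Both genes showed no overlap between groups, and neither shared a 100-base stretch with another gene. The other 5 Cyp3a genes in the table did not reach 1 FPKM. Cyp3a25 was at 0.156 ± 0.0702 FPKM in TNF and 0.446 ± 0.189 FPKM in Ctrl, and Cyp3a11, the main Cyp3a gene of mouse liver, was listed at 0 in all TNF samples and at 0, 0.0398 and 0.092 FPKM in Ctrl samples.

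All 4 tested Cyp2d genes, relatives of the human drug-oxidizing CYP2D6, fell. Cyp2d26 was by far the most abundant of them (ENSMUSG00000022445, chromosome 15, 82790101 to 82794294), with 56.7, 51.3 and 61.3 FPKM in TNF, against 99.5, 106 and 92.5 FPKM in Ctrl (log2 change -0.80, SE 0.07, adjusted p = 0.000241). Cyp2d10 had 1.46, 0.898 and 1.38 FPKM in TNF, against 3.20, 3.05 and 3.51 FPKM in Ctrl (log2 change -0.93, adjusted p = 0.000879). Cyp2d9 had 0.711, 0.878 and 0.588 FPKM in TNF, against 1.79, 1.97 and 1.28 FPKM in Ctrl (log2 change -0.63, adjusted p = 0.00977). The groups were apart in all of these genes. Cyp2d34 averaged 6.79 ± 0.562 FPKM in TNF and 9.84 ± 1.21 FPKM in Ctrl (log2 change -0.47, adjusted p = 0.00858). Cyp2d10 shared 14% of its 100-base stretches with other genes, mostly Cyp2d11 and Cyp2d9, and Cyp2d9 shared 6.76%, so the split between them is uncertain. Exons of other genes also cover 3.64% of the exon bases of Cyp2d10 and 9.26% of those of Cyp2d9. Shared 100-base stretches made up 0.319% of those of Cyp2d26 and 0.0657% of those of Cyp2d34. Without both Ctrl 1 and TNF 3 the call for Cyp2d9 was lost (adjusted p = 0.109). Below the filter, Cyp2d12 was at 0.316 ± 0.104 and 0.542 ± 0.0394 FPKM in TNF and Ctrl, and Cyp2d22 at 0.343 ± 0.0275 and 0.202 ± 0.103 FPKM.

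Cyp2j genes encode epoxygenases of arachidonic acid, and both tested members fell. Cyp2j6 (ENSMUSG00000052914, chromosome 4, 96516138 to 96553661) was at 37.6, 40.0 and 38.5 FPKM in TNF, against 58.5, 59.4 and 65.2 FPKM in Ctrl (log2 change -0.64, SE 0.05, adjusted p = 0.000125). Its groups did not overlap. Cyp2j9 averaged 1.39 ± 0.182 FPKM in TNF and 2.23 ± 0.509 FPKM in Ctrl (log2 change -0.43, SE 0.13, adjusted p = 0.0433). That call was lost without TNF 1, TNF 2, TNF 3, Ctrl 2 or Ctrl 3 (adjusted p 0.0705 to 0.128). Cyp2j5 was below the filter, at 0.302 ± 0.0765 FPKM in TNF and 0.548 ± 0.0327 FPKM in Ctrl. Cyp2s1, an epithelial member, was at 11.1, 8.52 and 12.8 FPKM in TNF and 12.7, 12.9 and 10.6 FPKM in Ctrl. Its groups overlapped and it did not pass (log2 change -0.16, 95% interval -0.47 to 0.16, adjusted p = 0.448), with 5.27% of its exon bases inside exons of Gm26707.

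Of the Cyp1 family, Cyp1a1, the induced target of the aryl hydrocarbon receptor, was tested (ENSMUSG00000032315, chromosome 9, 57687928 to 57703824). Its levels were 5.05, 8.26 and 4.36 FPKM in TNF samples, against 8.45, 9.52 and 11.3 FPKM in Ctrl samples. The highest TNF sample came close to the lowest Ctrl sample without reaching it. The log2 change was -0.67 (SE 0.19, adjusted p = 0.0411), and the call was lost when any sample other than TNF 2 was left out (adjusted p 0.0565 to 0.123) and with the replicate number as a block (adjusted p = 0.0524). Without TNF 2 the log2 change was -0.91 (adjusted p = 0.00325). Of the 100-base stretches of Cyp1a1, 1.51% occurred in Cyp1a2. Cyp1b1 was below the filter, at 0.188 ± 0.0439 FPKM in TNF and 0.355 ± 0.222 FPKM in Ctrl.

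Family 4 gave 4 falls, the 1 rise and 1 gene that did not pass. Cyp4f14, a mouse enzyme that oxidizes leukotriene B and vitamin E, fell (ENSMUSG00000024292, chromosome 17, 32905070 to 32917342). It was at 28.6, 32.2 and 32.3 FPKM in TNF, against 65.0, 72.2 and 80.0 FPKM in Ctrl (log2 change -1.19, SE 0.08, adjusted p = 5.98e-05). The ratio of mean FPKM, TNF over Ctrl, was 0.429 for Cyp4f14, 0.734 for Cyp4f13, 0.761 for Cyp4f40 and 0.909 for Cyp4f16, all on chromosome 17. These ratios were not tested against each other. Cyp4f13 averaged 5.77 ± 0.461 FPKM in TNF and 7.86 ± 0.603 FPKM in Ctrl (adjusted p = 0.00679). Cyp4f40 had 11.4, 10.2 and 12.4 FPKM in TNF, against 15.1, 16.0 and 13.6 FPKM in Ctrl (log2 change -0.37, adjusted p = 0.0150), with no overlap. With no filter on level that call was lost (adjusted p = 0.0565). Cyp4f16 averaged 8.82 ± 0.180 FPKM in TNF and 9.71 ± 0.142 FPKM in Ctrl and did not pass (log2 change -0.12, 95% interval -0.22 to -0.03, adjusted p = 0.0713). None of the 100-base stretches of Cyp4f14, Cyp4f13 or Cyp4f40 occurred in another gene, and 5.95% of those of Cyp4f16 did. Cyp4f17 was below the filter, at 0.641 ± 0.156 FPKM in TNF and 0.631 ± 0.178 FPKM in Ctrl.

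Cyp4b1, which oxidizes fatty acids and activates some plant toxins, stood at 1.06, 1.14 and 1.34 FPKM in TNF samples, against 3.92, 3.28 and 3.78 FPKM in Ctrl samples. The groups were well apart (log2 change -1.10, SE 0.09, adjusted p = 0.000117), and the ratio of means was 0.322. Of its 100-base stretches, 3.40% occurred in other genes, all of them Cyp4b1 pseudogenes. Cyp4v3, the mouse counterpart of the fatty acid hydroxylase gene CYP4V2 of human corneoretinal dystrophy, was the member that rose (ENSMUSG00000079057). It averaged 1.49 ± 0.0949 FPKM in TNF and 0.883 ± 0.0800 FPKM in Ctrl, with no overlap (log2 change 0.41, SE 0.09, adjusted p = 0.0127). The values correspond to about 169 to 171 reads per TNF library and 92.2 to 107 reads per Ctrl library. Of its exon bases, 8.22% lie in exons of Gm45753, and whether counting used strand is not known from the sources used here, so part of the signal can come from that gene. Without both Ctrl 1 and TNF 3 the call was lost (adjusted p = 0.0961).

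**Figure D4:**
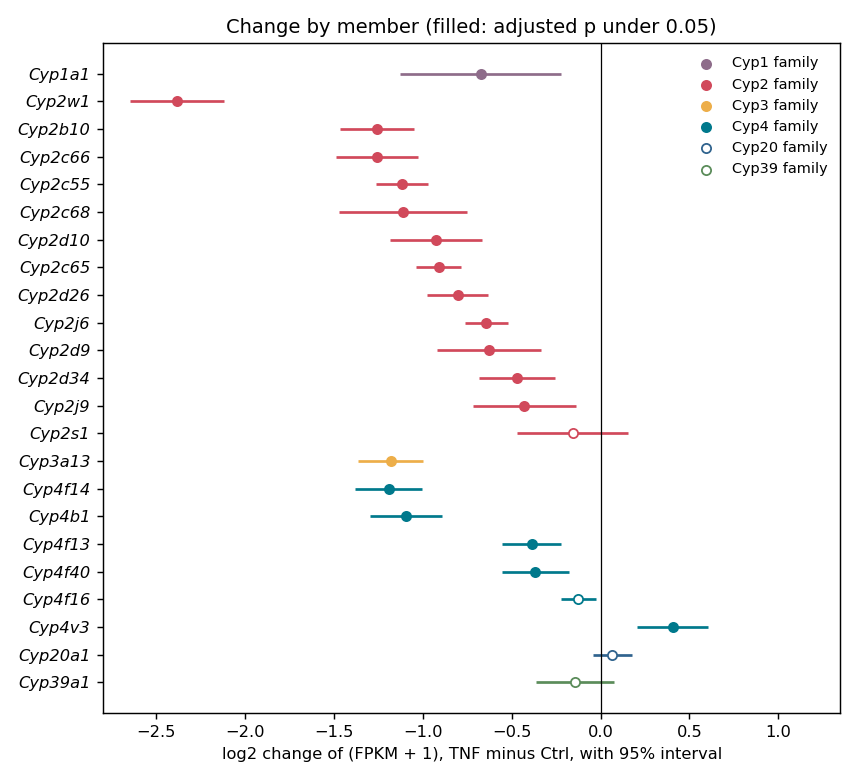
Log2 change of (FPKM + 1), TNF minus Ctrl, of each of the 23 tested members, grouped and coloured by family, with the 95% interval from limma. Cyp2w1 stands farthest left at -2.38, Cyp4v3 is the one filled point right of 0, and the open points (Cyp2s1, Cyp4f16, Cyp20a1 and Cyp39a1) did not pass.

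Members outside families 1 to 4 that reached 1 FPKM did not pass. Cyp39a1, a hydroxylase of oxysterols, averaged 5.54 ± 0.833 FPKM in TNF and 6.19 ± 0.256 FPKM in Ctrl (log2 change -0.14, 95% interval -0.36 to 0.07, adjusted p = 0.317). Cyp20a1, whose substrate is not established, was at 10.0, 10.2 and 9.69 FPKM in TNF, against 9.69, 9.04 and 9.71 FPKM in Ctrl (log2 change 0.07, 95% interval -0.05 to 0.18, adjusted p = 0.371). The groups overlapped for both genes.

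The other 43 members had a mean under 1 FPKM, and 28 of them were listed at 0 in at least 1 library. Among those with a mean of at least 0.3 FPKM in a group were 4 from sterol, vitamin D and ethanol metabolism. Cyp2r1, a vitamin D hydroxylase of liver and other tissues, was at 0.862, 0.753 and 0.557 FPKM in TNF, against 0.396, 0.484 and 0.434 FPKM in Ctrl. Cyp27a1, a sterol hydroxylase of mitochondria, was at 0.519 ± 0.114 FPKM in TNF and 0.428 ± 0.236 FPKM in Ctrl. Cyp46a1, the cholesterol hydroxylase known from brain neurons, was at 0.365, 0.440 and 0.317 FPKM in TNF, against 0.144, 0.113 and 0.183 FPKM in Ctrl. Cyp2e1, which oxidizes ethanol in liver, was at 0.767, 0.449 and 0.270 FPKM in TNF, against 0.0591, 0 and 0 FPKM in Ctrl, about 18.7 to 46.4 reads per TNF library. The TNF values lay above the Ctrl values for Cyp2r1, Cyp46a1 and Cyp2e1. Of the other members under the filter, the same held for Cyp2d22, Cyp7b1, Cyp2j12 and Cyp11a1. For Cyp2j5, Cyp2d12 and Cyp3a25 every TNF value lay below every Ctrl value. The share of such separations among all genes at these low levels was not computed. With no filter on level, Cyp46a1 was called higher (log2 change 0.26, adjusted p = 0.0283), and Cyp2r1 (adjusted p = 0.141) and Cyp2e1 (adjusted p = 0.0501) were not.

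That fit also called Cyp2j12 and Cyp11a1, the enzyme that begins steroid hormone synthesis, as higher. These rest on very few reads: Cyp11a1 was at 0.0397, 0.0374 and 0.0388 FPKM in TNF samples, about 2.35 to 2.65 reads per library, and listed at 0 in all Ctrl samples. Cyp2j12 was at 0.0733, 0.0676 and 0.122 FPKM in TNF and listed at 0 in Ctrl. The vitamin D enzymes Cyp27b1 and Cyp24a1 reached 0.0842 and 0.0380 FPKM at most in TNF samples, against 0.145 FPKM and 0 in Ctrl samples. Of the retinoic acid hydroxylases, Cyp26b1 was at 0.0478 ± 0.0126 FPKM in TNF and 0.0547 ± 0.0286 FPKM in Ctrl. In the 32 members below 0.3 FPKM in both groups, group means ran up to 0.212 FPKM in TNF and 0.244 FPKM in Ctrl.

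Genes that serve the enzymes were described from fixed lists, chosen with earlier results of these data known, with all tested genes as the background given above. Of 10 tested electron donors and their partners, 5 fell, 0 rose and 5 did not pass (median log2 change -0.24). Pgrmc1, a heme-binding partner of P450 enzymes, was at 67.9 ± 3.62 FPKM in TNF and 96.3 ± 1.96 FPKM in Ctrl (log2 change -0.50, adjusted p = 0.000304). Cyb5a, the microsomal cytochrome b5, was at 17.5 ± 0.210 FPKM in TNF and 21.1 ± 0.976 FPKM in Ctrl (adjusted p = 0.00569), and Cyb5r1 (adjusted p = 0.00771) and the mitochondrial ferredoxin gene Fdx1 (adjusted p = 0.00921) were also lower. Por itself, named here for its role, was at 34.6, 32.4 and 39.0 FPKM in TNF, against 40.2, 40.7 and 43.1 FPKM in Ctrl. It was called lower with an adjusted p of 0.05 by rounding, at the threshold (log2 change -0.22). None of the 8 heme synthesis genes passed (median log2 change -0.06). The first enzyme, Alas1, was at 18.6 ± 0.337 FPKM in TNF and 17.2 ± 0.769 FPKM in Ctrl (adjusted p = 0.131), and Alad was at 17.6 ± 1.72 and 16.5 ± 1.2 FPKM. Of 4 heme breakdown genes, the inducible oxygenase Hmox1 rose, at 13.3 ± 1.12 FPKM in TNF and 7.78 ± 1.10 FPKM in Ctrl (log2 change 0.71, adjusted p = 0.00179), Hmox2 fell (log2 change -0.16, adjusted p = 0.0237) and 2 did not pass.

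Of 18 tested transcription factors known to control P450 genes, 8 fell, 3 rose and 7 did not pass (median log2 change -0.19). The shared receptor partner Rxra was at 10.5 ± 0.390 FPKM in TNF and 14 ± 0.482 FPKM in Ctrl (log2 change -0.38, adjusted p = 0.00105). The fatty acid receptor Ppara was at 1.44 ± 0.169 FPKM in TNF and 2.47 ± 0.0973 FPKM in Ctrl (log2 change -0.51, adjusted p = 0.00314). The gene of PXR, Nr1i2, was at 12.5 ± 0.434 FPKM in TNF and 15.8 ± 0.798 FPKM in Ctrl (log2 change -0.31, adjusted p = 0.00383). The vitamin D receptor Vdr rose, at 87.9 ± 4.60 FPKM in TNF and 70.8 ± 3.85 FPKM in Ctrl (log2 change 0.31, adjusted p = 0.00688). The CAR gene Nr1i3, chosen after its values were seen as was Ahr, had a mean under 1 FPKM, at 0.394 ± 0.293 FPKM in TNF and 0.896 ± 0.290 FPKM in Ctrl. The aryl hydrocarbon receptor gene Ahr was at 5.99 ± 0.922 FPKM in TNF and 5.40 ± 0.332 FPKM in Ctrl (adjusted p = 0.422). The HNF4 genes were also chosen after their values were seen. Hnf4a was at 119 ± 7.56 FPKM in TNF and 135 ± 4.02 FPKM in Ctrl (log2 change -0.18, adjusted p = 0.0439). Hnf4g was at 11.2 ± 2.02 FPKM in TNF and 14.9 ± 0.525 FPKM in Ctrl (log2 change -0.40, adjusted p = 0.0323).

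Both tested epoxide hydrolase genes, whose enzymes act on epoxides that P450 enzymes form, fell. Ephx1 was at 22.0 ± 0.617 FPKM in TNF and 33.8 ± 1.88 FPKM in Ctrl (log2 change -0.59, adjusted p = 0.000163), and Ephx2 at 4.17 ± 0.370 and 5.84 ± 0.620 FPKM (log2 change -0.40, adjusted p = 0.0113). Among 7 tested retinoid enzymes and carriers, 4 fell, 2 rose and 1 did not pass. The retinaldehyde dehydrogenase gene Aldh1a1 was at 22.4 ± 1.74 FPKM in TNF and 60.3 ± 8.33 FPKM in Ctrl, and Rbp2 at 0.537 ± 0.192 and 2.57 ± 0.627 FPKM. Aldh1a3 rose, at 24.6 ± 4.14 FPKM in TNF and 12 ± 1.39 FPKM in Ctrl, as did Rdh10, at 24.6 ± 1.18 and 15.2 ± 0.0148 FPKM. Of 16 other tested oxidative drug-metabolizing genes, 8 fell, 1 rose and 7 did not pass (median log2 change -0.26). The alcohol dehydrogenase gene Adh1 rose, at 195 ± 18.2 FPKM in TNF and 65.1 ± 3.41 FPKM in Ctrl (log2 change 1.57, adjusted p = 9.33e-06). The aldo-keto reductase genes Akr1c14 and Akr1c19 and the monoamine oxidase gene Maob fell, with log2 changes of -1.32, -1.14 and -1.0.

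**Figure D5:**
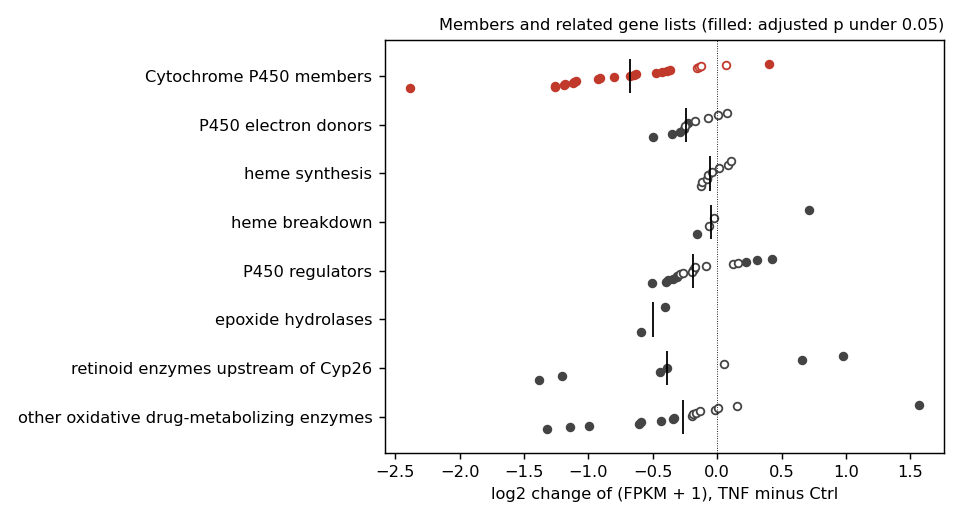
Log2 change of (FPKM + 1), TNF minus Ctrl, of the tested members (red) and of the tested genes of 7 related lists (grey), filled where the adjusted p was under 0.05, with a bar at each median. The members' median is -0.67, against -0.24 for electron donors and -0.06 for heme synthesis genes.

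Libraries held 2.81e+07 to 3.22e+07 reads in TNF and 2.95e+07 to 3.06e+07 in Ctrl, as recovered from the deposited values, and 12254 to 12458 genes reached 1 FPKM. Markers of several cell types were read beside the members, and whether the cultures held each type was not tested. Each range given for a list is the sum over all its measured markers, tested or not. Of 8 colonocyte markers, 3 fell (Slc26a3, Car1 and Aqp8) and 5 did not pass, with summed levels of 1263 to 1310 FPKM in TNF and 1792 to 2135 FPKM in Ctrl. Car1 carried most of this sum, at 840 FPKM in TNF and 1492 FPKM in Ctrl on average. The other 7 summed to 438 to 460 FPKM in TNF and 476 to 521 FPKM in Ctrl, and of these Slc9a3 and Cdhr5 had the higher mean in TNF. All 4 tested small intestine enterocyte markers fell, as did 2 of 2 tested hepatocyte and 2 of 2 tested fibroblast markers. The sums were 5.10 to 6.21 FPKM in TNF against 20.1 to 22.1 FPKM in Ctrl for 6 small intestine enterocyte markers. They were 18.5 to 22.3 against 39.3 to 49.8 FPKM for 5 hepatocyte markers, and 3.08 to 3.87 against 5.56 to 9.90 FPKM for 6 fibroblast markers. Ttr carried most of the hepatocyte sum, at 19.2 FPKM in TNF and 40.4 FPKM in Ctrl on average. The other tested hepatocyte marker was Cps1, and Alb was under the filter, at 0.629 and 1.22 FPKM. Loss of hepatocytes cannot be read from this list. All 3 tested glial markers rose, and the list of 4 summed to 20.2 to 23 FPKM in TNF and 4.58 to 6.35 FPKM in Ctrl. Goblet cell markers gave 2 rises and 1 fall of 6 (1218 to 1250 against 1209 to 1277 FPKM). Enteroendocrine markers gave 1 rise and 2 falls of 5 tested (sum of 6 markers, 98.8 to 106 against 136 to 148 FPKM). Stem cell markers gave 1 rise and 3 falls of 5 (107 to 110 against 118 to 136 FPKM). Neither tested leukocyte marker passed, and the list of 9 summed to 8.02 to 22.2 FPKM in TNF and 7.84 to 20.9 FPKM in Ctrl. The 1 tested muscle marker, Acta2, did not pass, at 0.629 ± 0.0915 FPKM in TNF and 1.81 ± 1.89 FPKM in Ctrl. The 4 muscle markers summed to 1.28 to 1.56 against 0.941 to 5.93 FPKM. Lyz2 made up much of the leukocyte sum, and the other 8 markers summed to 5.31 to 6.43 FPKM in TNF and 3.18 to 4.87 FPKM in Ctrl. Under the filter, Cd3e was at 0.595, 0.467 and 0.398 FPKM in TNF, against 0.0275, 0.0761 and 0.0551 FPKM in Ctrl, and Ptprc at 0.382, 0.377 and 0.374 FPKM in TNF, against 0.198, 0.146 and 0.194 FPKM in Ctrl. Both were higher in every TNF sample than in any Ctrl sample. These markers were picked out after their values were seen. Tuft (1.83 to 2.16 against 1.95 to 2.23 FPKM) and endothelial markers (0.645 to 0.838 against 0.270 to 0.774 FPKM) were all under the filter, and none of the listed markers in the table was at 0 in all 6 libraries. The part of these differences in the fall of the cytochrome P450 genes was not tested.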

How the data were processed

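Total RNA of 6 samples was sequenced, with the groups taken from the sample titles. The tools named are cutadapt (version 1.9) and FastQC, and the build is GRCm38, per the submitters' processing notes. The sources used here name no aligner, counting program, annotation release or strandedness. The authors deposited 1 value per gene and library under the name of normalized counts. These were read as FPKM, inferred from the deposited values: multiplied by exonic gene length they sum to 9.59e+08 to 9.64e+08 per library. Depth came from single-exon genes, whose low values cluster at whole multiples of 1 read (26.3% to 29.1% within a tolerance of 0.15, against 0.6% of the range covered). The size of 1 read was chosen in each library to make this share largest, so the share is not separate evidence for the depth. The 0.6% would be the share only if the low values were spread evenly. Read numbers per gene are therefore approximate.

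Genes averaging 1 FPKM or more were compared as log2(FPKM + 1) by limma (version 3.58.1, R 4.3.3), with a moderated two-sided test, a mean-dependent prior variance, the group as the only term and Benjamini-Hochberg adjustment (threshold 0.05). This scale understates changes of low genes. The fit was run on simulated data with independent normal noise on the log scale, which is what it assumes. That run cannot show how it handles the noise of real reads or variation shared between samples. Positions came from GENCODE M21 on GRCm38, which held all 66 members, and shared 100-base stretches from its transcripts. Values in every sample are given for called members whose log2 change was 0.5 or larger in size and for the 10 with the highest level. Members under the filter are named from 0.3 FPKM, or after their values were seen. Up to 4 called genes come from each list, with Por, Hnf4a and Hnf4g named in addition. The members and lists were chosen with earlier results of these data known.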

Additional observations from a re-analysis of the deposited data

How the results depend on the processing

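Across 15 alternatives no tested member changed sign, and 14 of the 19 called members passed under each alternative that gave a value. Calls were lost for Cyp1a1 and Cyp2j9 under several (up to adjusted p = 0.138 and 0.129), for Cyp4f40 with no filter on level (0.0565), and for Cyp2d9 and Cyp4v3 without both TNF 3 and Ctrl 1 (0.109 and 0.0961). With no filter, 4 of 66 members were called higher and 15 lower, against 1734 higher and 1024 lower of 29940 genes. With a minimum of 5 FPKM, which Cyp4v3 does not reach, 0 of 17 members were called higher and 13 lower, against 1148 higher and 1049 lower of 7628 genes. Without both TNF 3 and Ctrl 1, 0 members were called higher. Leaving out both of these samples gave 821 higher and 596 lower among all genes, where fewer samples are used. Leaving out 1 sample in turn gave 16 to 17 members lower and 1 higher, and 1149 to 1430 higher and 913 to 1177 lower among all genes. With the replicate number as a block, 17 members were called lower and 1 higher, and 1256 genes higher and 1004 lower. Over all tested genes, samples that share a number did not deviate together (correlations of -0.00426, -0.101 and 0.00529). These correlations cannot show whether such samples share a mouse or a culture. Ratios of summed levels by family were within 1 SD with TPM-scaled values (0.501 against 0.497 over all members). Members below 0.3 FPKM in both groups rest on at most about 47.8 reads per library, which limits what can be detected in them.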
